A study of Drosophila melanogaster with 27 samples.

Results

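The sex peptide network of the seminal fluid was followed here through 9 of the 11982 genes with a probe set of their own on the array, namely SP, Sems, CG9997, aqrs, intr, CG17575, antr, lectin-46Ca and lectin-46Cb. A gene was a member when a probe set carried its symbol and no other in the annotation of the platform, and each member was found with 1 probe set. Whole adult males of the fruit fly Drosophila melanogaster were pooled by subline, and the total RNA of each pool was put on 1 Affymetrix Drosophila Genome 2.0 array. The 27 arrays fell into 9 groups of 3. These were the most depressed sublines (+D) and the least depressed sublines (-D) of each of 4 inbred lines, numbered 5, 7, 12 and 15, and the outbred control.

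Each inbred line came from a different couple of a large outbred base population, and its sublines were kept by sib mating for 8 generations to an average inbreeding coefficient of about 0.7. Depression was judged by the pupae produced per female, so the levels were set on the productivity of a subline and not on its males. The +D sublines had to leave enough flies for the arrays, and the control was the outbred base population itself, in 3 samples of 1 stock. All flies were reared in continuous light, and the mating state of the males on the arrays is not given in the sources used here.

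Sex peptide (SP) is a small peptide of the male accessory gland that is passed to the female at mating, where it lowers her readiness to mate again and raises egg laying. It lasts for days because it binds to stored sperm, from which its active part is slowly released to a receptor in the female tract. The other members are seminal proteins that SP needs in order to bind to sperm. They form a relay of a protease, protease homologues, cysteine-rich secretory proteins and lectins, and losing one of them shortens the response of the female.

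All 9 members passed the filter on low values, which kept the 9384 probe sets with the highest maximum out of 18769. Expression is given as log2 values throughout, and levels of different genes were not set against each other because each probe set has its own scale. In whole males, fewer accessory gland cells and less RNA per cell cannot be told apart. The 19 other accessory gland proteins and 16 of the 19 testis genes on the array also passed the filter. Chorion, vitelline membrane and yolk genes, 17 in all, should not be found in males. Their median against the median array was 3.68 in line 7 +D replicate 2, 0.834 in line 5 +D replicate 3 and 0.776 in line 15 +D replicate 2, and between -0.725 and 0.202 on the other arrays. These 3 arrays are all of +D sublines, and results are given below also without them where they differ. A further fit also left out 2 arrays taken to hold yolk RNA, both of -D sublines. They were line 5 -D replicate 2 and line 15 -D replicate 1, with list medians of 0.149 and 0.082, within the range of the other arrays.

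In the most depressed sublines, 7 of the 9 members had lower expression than in the least depressed sublines of the same lines and none had higher (limma, adjusted p under 0.05 after the Benjamini-Hochberg correction over all probe sets kept). Of all probe sets, 8.94% were called lower and 6.26% higher. The 7 were the protease Sems, the protease homologues CG9997 and aqrs, both cysteine-rich secretory proteins and both lectins, with log2 differences between -0.49 and -0.24. SP itself and the protease homologue intr did not pass the test. The median difference of the 9 members was -0.38, against -0.01 over all probe sets.

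**Figure D1:**
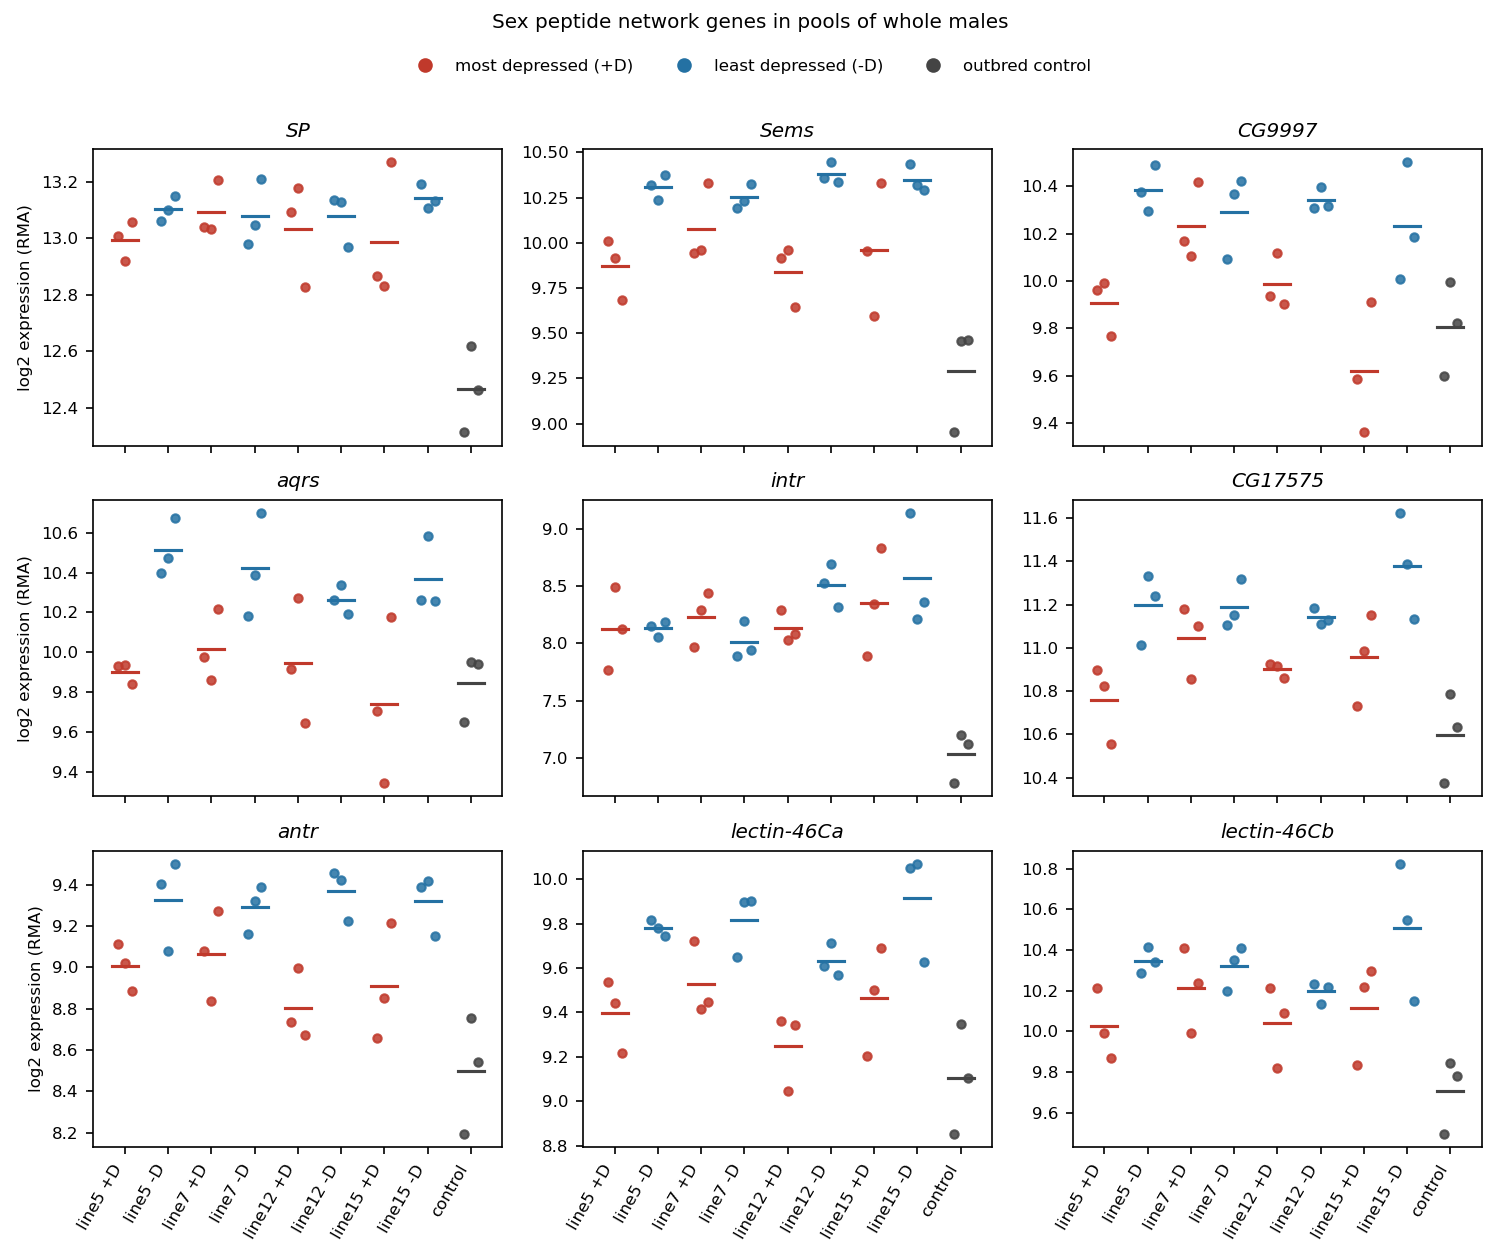
Log2 expression (RMA) of the 9 sex peptide network genes on each of the 27 arrays, by group, with a point for each array and a bar for the mean of 3. All 12 -D arrays lie above the 3 controls for each gene, whereas some +D arrays overlap them for all genes but SP, Sems and intr.

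SP, the peptide around which the network is built, was close between levels. Its lowest, median and highest log2 expression were 12.83, 13.04 and 13.27 in the 12 +D sublines, against 12.97, 13.12 and 13.21 in the 12 -D sublines. Both the lowest and the highest array of the inbred sublines were thus of +D sublines. Only in line 5 were the levels of SP apart, narrowly, with 13.058 as the highest +D and 13.061 as the lowest -D value. In that line +D lay wholly below -D for 8.47% of all probe sets. The difference was -0.07 (SE 0.05, 95% interval -0.18 to 0.04), with an adjusted p of 0.408 in limma. An SP change of more than 0.18 log2 units in either direction lies outside this interval. SP was bright on all arrays, at 1.25 to 2.24 log2 units below the brightest probe set of its array, and whether this narrowed its differences was not tested.

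Sems (seminase) is a trypsin-like protease that acts early in the network. Its log2 expression was 9.60, 9.95 and 10.33 at the lowest, median and highest of the +D sublines, against 10.19, 10.32 and 10.44 in the -D sublines. The -D sublines lay in a narrow band, and 10 of the 12 +D sublines fell below it. Of all probe sets 3.38% had 8 or more of the 12 +D sublines below all -D sublines. The difference was -0.38 (SE 0.08), a fold of 0.766, with an adjusted p of 0.00147 in limma.

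Of the Sems values by line, line 12 had 9.92, 9.96 and 9.65 in its +D sublines, against 10.36, 10.44 and 10.33 in its -D sublines. Line 5 had 10.01, 9.92 and 9.69 in +D, against 10.32, 10.24 and 10.37 in -D. In both lines the levels did not overlap, as was the case with +D below -D for 16.9% of all probe sets in line 12 and 8.47% in line 5. In line 15 the values were 9.96, 9.60 and 10.33 in +D, against 10.44, 10.32 and 10.29 in -D. Line 7 had 9.95, 9.96 and 10.33 in +D, against 10.19, 10.23 and 10.33 in -D. In these lines +D replicate 3 lay above the lowest -D subline and the other +D sublines did not. In line 7 it was also just above the highest -D subline, at 10.3297 against 10.3274.

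CG9997 is a protease homologue that is cut in the female tract after mating. Its lowest, median and highest values were 9.36, 9.95 and 10.42 in the +D sublines, against 10.01, 10.34 and 10.50 in the -D sublines. The difference was -0.38 (SE 0.07), a fold of 0.770, with an adjusted p of 7.93e-04 in limma. Of the 12 +D sublines, 8 were below all -D sublines, a number reached or passed by 3.38% of all probe sets.

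CG9997 was lowest in line 15, where the +D sublines had 9.58, 9.36 and 9.91, against 10.01, 10.50 and 10.19 in the -D sublines. Line 5 had 9.96, 9.99 and 9.77 in +D, against 10.37, 10.30 and 10.49 in -D. Line 12 had 9.94, 10.12 and 9.90 in +D, against 10.31, 10.40 and 10.32 in -D. The levels did not overlap in these 3 lines, as was the case with +D below -D for 7.38% of all probe sets in line 15. The levels of CG9997 overlapped in line 7, with 10.17, 10.10 and 10.42 in +D, against 10.09, 10.37 and 10.42 in -D.

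The aqrs gene (aquarius) codes for another protease homologue and had the largest difference of the 9 members. Its values were 9.34, 9.92 and 10.27 at the lowest, median and highest of the +D sublines, against 10.18, 10.36 and 10.70 in the -D sublines. Below all -D sublines lay 10 of the 12 +D sublines, where 3.38% of all probe sets had 8 or more. The difference was -0.49 (SE 0.09, 95% interval -0.68 to -0.31), a fold of 0.711, with an adjusted p of 6.42e-04 in limma.

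For aqrs, line 5 had 9.93, 9.94 and 9.84 in its +D sublines, against 10.40, 10.47 and 10.67 in its -D sublines. Line 15 had 9.70, 9.34 and 10.18 in +D, against 10.26, 10.59 and 10.26 in -D. The levels did not overlap in either line, as was the case for 8.47% of all probe sets in line 5 and 7.38% in line 15. Line 7 had 9.98, 9.86 and 10.22 in +D, against 10.18, 10.39 and 10.70 in -D. Line 12 had 9.91, 10.27 and 9.64 in +D, against 10.26, 10.34 and 10.19 in -D. In lines 7 and 12 a single +D subline, replicate 3 in line 7 and replicate 2 in line 12, reached above the lowest -D subline.

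The remaining protease homologue is intr (intrepid). Its lowest, median and highest values were 7.77, 8.21 and 8.84 in the +D sublines, against 7.89, 8.20 and 9.14 in the -D sublines, and the levels overlapped almost fully. The difference was -0.09 (SE 0.11, 95% interval -0.33 to 0.14), with an adjusted p of 0.661 in limma. Differences of the size found for aqrs lie outside this interval, whereas those of CG17575 (-0.31) and lectin-46Cb (-0.24) lie inside it. Only in line 12 were the levels apart, with 8.30, 8.03 and 8.08 in +D, against 8.53, 8.69 and 8.32 in -D. In that line +D lay wholly below -D for 16.9% of all probe sets, so this was common.

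CG17575 and antr (antares) code for cysteine-rich secretory proteins. CG17575 had 10.55, 10.91 and 11.18 at the lowest, median and highest of the +D sublines, against 11.02, 11.17 and 11.62 in the -D sublines. The difference was -0.31 (SE 0.07), a fold of 0.805, with an adjusted p of 0.00259 in limma. Below all -D sublines lay 9 of the 12 +D sublines, where 3.38% of all probe sets had 8 or more. The levels were apart in lines 5 and 12, as with +D below -D for 8.47% and 16.9% of all probe sets.

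The antr values were 8.66, 8.94 and 9.27 in the +D sublines, against 9.08, 9.39 and 9.50 in the -D sublines, in the same order. The difference was -0.38 (SE 0.08), a fold of 0.767, with an adjusted p of 0.00172 in limma. Line 12 was the only line in which the levels of antr did not overlap, with 8.73, 9.00 and 8.67 in +D, against 9.46, 9.42 and 9.23 in -D. There +D lay wholly below -D for 16.9% of all probe sets.

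The 2 lectins, lectin-46Ca and lectin-46Cb, are C-type lectins. For lectin-46Ca the lowest, median and highest values were 9.05, 9.43 and 9.72 in the +D sublines, against 9.57, 9.76 and 10.07 in the -D sublines. The difference was -0.38 (SE 0.07), a fold of 0.771, with an adjusted p of 0.00109 in limma. Below all -D sublines lay 10 of the 12 +D sublines, where 3.38% of all probe sets had 8 or more. Lines 5 and 12 showed no overlap of levels, as with +D below -D for 8.47% and 16.9% of all probe sets.

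For lectin-46Cb they were 9.82, 10.15 and 10.41 in the +D sublines, against 10.14, 10.31 and 10.82 in the -D sublines. The difference was -0.24 (SE 0.08), a fold of 0.844, with an adjusted p of 0.0347 in limma. It was the weakest of the 7 calls. Leaving out 1 array ended it for 12 of the 27 arrays, with an adjusted p of at most 0.0686, and without the 3 arrays with eggshell RNA its adjusted p was 0.102. The other 6 calls held in each of these fits.

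**Figure D2:**
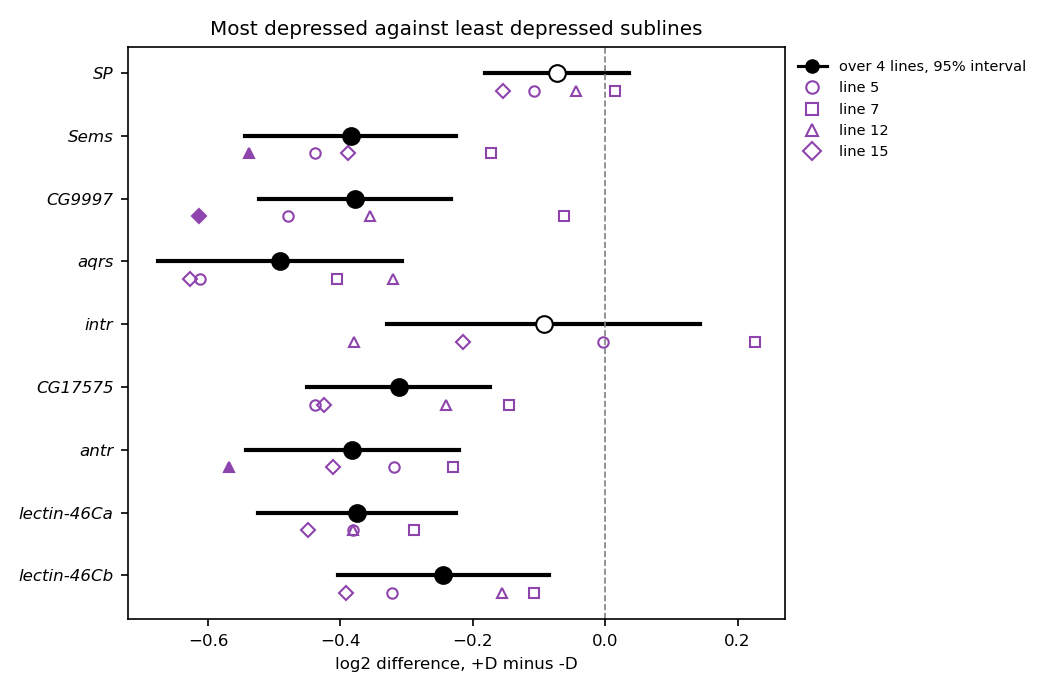
Log2 difference of +D minus -D sublines for the 9 genes, as the limma estimate over 4 lines with its 95% interval (black) and as the estimate in each line (purple); filled symbols have an adjusted p under 0.05. The estimates over 4 lines run from -0.49 for aqrs to -0.07 for SP, and those of line 7 are the nearest to 0 for 7 of the 9 genes.

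Within single lines, few members passed the test. In line 12, antr was lower in the +D sublines by -0.57 (adjusted p = 0.0380) and Sems by -0.54 (adjusted p = 0.0468), where 3.47% of all probe sets were called lower in limma. In line 15, CG9997 was lower by -0.61 (adjusted p = 0.0260), where 1.16% of all probe sets were called lower. These calls were near the threshold. Leaving out 1 array gave an adjusted p of at most 0.127 for antr, 0.153 for Sems and 0.143 for CG9997, and without the 3 arrays with eggshell RNA that of CG9997 was 0.136.

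In lines 5 and 7, limma called 0 of the 9 members, where 2.04% and 0.0107% of all probe sets were called in either direction. An unadjusted p under 0.05 was found for 6 members in line 5, all lower in the +D sublines, and for 1 in line 7, which was aqrs with a difference of -0.41. Over all probe sets the share with such a p was 14.01% in line 5 and 9.42% in line 7, so the 1 of 9 members in line 7 was near the background. In line 15 such a p was found for 7 members and in line 12 for 4, all lower in the +D sublines. Of all probe sets 12.4% had one in line 15 and 19.6% in line 12. The median difference of the 9 members was smallest in line 7, at -0.15, and was -0.38 in line 5, -0.36 in line 12 and -0.41 in line 15. Over all probe sets it lay between -0.03 and 0.02 in the 4 lines.

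The level difference of the members was not found to depend on the line. The interaction of line and level was called for 0 of the 9 members in limma, with 0.0853% of all probe sets called, and 0 members had an unadjusted p under 0.05, with 7.35% of all probe sets. The nearest was CG9997, whose difference of -0.06 in line 7 stood beside -0.36 in line 12, -0.48 in line 5 and -0.61 in line 15, with an unadjusted p of 0.0624. The means of the 4 lines over both levels also gave 0 calls in limma, against 12.1% of all probe sets. Here 1 member, again CG9997, had an unadjusted p under 0.05 (adjusted p = 0.0969), as did 29.1% of all probe sets.

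Expression differed more among sublines in the +D groups than in the -D groups for each of the 9 members, as a description with no test. It did so for 74.3% of all probe sets, so this was common on the array and is not particular to the members. The widest gap was that of Sems, with a pooled SD within groups of 0.244 in +D and 0.0682 in -D. For SP the pooled SD was 0.163 in +D and 0.0821 in -D, and for aqrs 0.279 in +D and 0.179 in -D. At the other end, CG17575 had 0.164 in +D and 0.158 in -D. The test used 1 spread per probe set for all groups, which is too small for the more variable ones.

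The sample codes in the labels also moved with the level. Arrays with early codes were 11 of +D sublines, 3 of -D sublines and the 3 controls, and those with late codes 1 of +D and 9 of -D sublines. Several arrays counted as late, among them the 1 of +D sublines, carry an early and a late code joined. What the codes stand for is not given in the sources used here. With the set of codes in the model, 5 members were called lower in +D sublines, namely Sems, CG9997, aqrs, antr and lectin-46Ca. CG17575 then had a difference of -0.34 (adjusted p = 0.0638) and lectin-46Cb of -0.22 (adjusted p = 0.343), and the sign of intr turned, to 0.12. The share of all probe sets called with the codes in the model is not given here. Over the other settings and the fits without 1 array, between 381 and 1666 probe sets were called in this comparison. The main fit called 1426, so its share is not a background for the 5 members. Within 1 set of codes +D and -D sublines could be compared in 3 lines. Means were lower in +D for 8 of 9 members in line 7 with early codes, with 3 arrays against 1. They were lower for 8 of 9 in line 15 with early codes, with 3 against 2, and for 9 of 9 in line 5 with late codes, with 1 against 3. Of all probe sets 46.2%, 52.2% and 48.1% were lower in these 3 splits. In line 5 the +D array and -D replicates 2 and 3 had joined codes, so that split was not within 1 clean set. With 1 array on a side in lines 5 and 7, these values have no replicate check, and the code set and the level cannot be told apart in most of the data.

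Against the outbred control, the direction was the opposite. The 24 inbred sublines had higher expression than the control for 8 of the 9 members and lower for none (limma, adjusted p under 0.05), where 29.6% of all probe sets were called higher and 14.2% lower. The comparison rests on 3 control arrays. The median difference was 0.51 for the members and 0.11 for all probe sets.

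The largest rise was that of intr, the member that differed least in level after SP. Its lowest, median and highest values were 7.77, 8.20 and 9.14 in the inbred sublines, against 6.78, 7.12 and 7.20 in the control. No inbred subline reached down to the control. The difference was 1.23 (SE 0.17), a fold of 2.34, with an adjusted p of 1.22e-05 in limma.

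SP had 12.83, 13.08 and 13.27 at the lowest, median and highest of the inbred sublines, against 12.32, 12.46 and 12.62 in the control, with a difference of 0.60 (SE 0.08), a fold of 1.51 and an adjusted p of 6.92e-06 in limma. In the same order, Sems had 9.60, 10.23 and 10.44 in the inbred sublines, against 8.95, 9.46 and 9.46 in the control, with a difference of 0.84 (SE 0.12), a fold of 1.79 and an adjusted p of 1.04e-05. For both genes, as for intr, all 24 inbred sublines were above the 3 controls, as they were for 9.14% of all probe sets.

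The antr gene rose by 0.64 in the inbred sublines (SE 0.12, adjusted p = 1.87e-04 in limma), with 8.19, 8.76 and 8.54 in the control, and 21 of the 24 inbred sublines lay above these. CG17575 rose by 0.47 (SE 0.10, adjusted p = 7.18e-04), against control values of 10.38, 10.79 and 10.63. The lectins rose by 0.50 (lectin-46Ca, SE 0.11, adjusted p = 9.89e-04) and by 0.51 (lectin-46Cb, SE 0.12, adjusted p = 0.00125), with control values of 8.85, 9.35 and 9.11 for lectin-46Ca and of 9.50, 9.84 and 9.78 for lectin-46Cb. For these 3 genes between 20 and 22 of the 24 inbred sublines were above all controls.

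The 2 adjacent genes CG9997 and aqrs stood closest to the control. CG9997 had control values of 9.60, 9.996 and 9.82, and its rise of 0.32 (SE 0.10) had an adjusted p of 0.0176 in limma. The aqrs control values were 9.65, 9.95 and 9.94, and its difference of 0.30 (SE 0.13) had an adjusted p of 0.0731. Without the 3 arrays with eggshell RNA aqrs was called in limma, with 0.34 (adjusted p = 0.0319). It was also called with array weights (0.0357), with sample codes (0.0407), and without line 12 +D replicate 3 (0.0491) or line 15 +D replicate 2 (0.0332). Without control replicate 1 its adjusted p was 0.369. For each of them 16 of the 24 inbred sublines were above all controls, made up of 4 of the 12 +D and all 12 -D sublines. The 12 -D sublines were above all controls for each of the 9 members and for 18.5% of all probe sets.

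**Figure D3:**
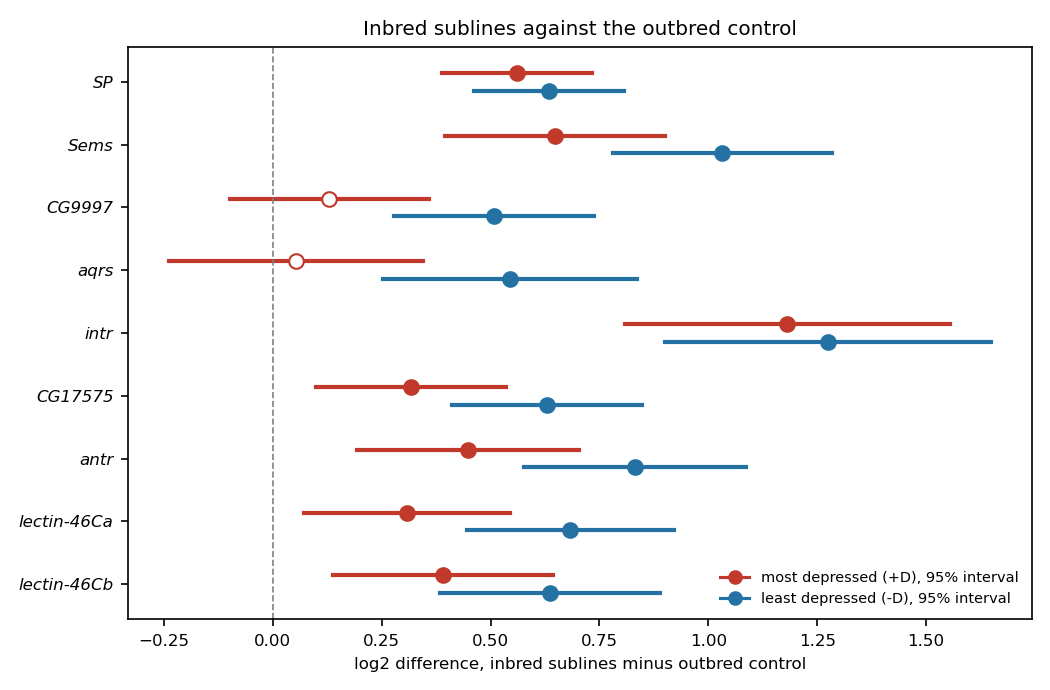
Log2 difference of the +D sublines (red) and of the -D sublines (blue) from the outbred control for the 9 genes, as limma estimates with 95% intervals; filled points have an adjusted p under 0.05. Only the +D points of aqrs and CG9997 have intervals that reach 0.

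Set against the control apart, the levels gave different counts for members. In the +D sublines 7 of the 9 members were higher than in the control, where 26.1% of all probe sets were called higher in limma. In the -D sublines all 9 were higher, where 30.8% were. These comparisons share the 3 control arrays. For aqrs the difference from the control was 0.05 (SE 0.14, adjusted p = 0.785) in +D sublines and 0.55 (SE 0.14, adjusted p = 0.00344) in -D sublines, and the +D value changed sign, to -0.0023, when arrays were centred on their medians. That centring left 5 members called in +D sublines, as CG17575 had an adjusted p of 0.0592 and lectin-46Ca one of 0.0822. For CG9997 it was 0.13 (SE 0.11, adjusted p = 0.367) in +D and 0.51 (SE 0.11, adjusted p = 8.95e-04) in -D. For SP it was 0.56 in +D and 0.63 in -D, and for intr 1.18 in +D and 1.27 in -D, all past the threshold.

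Control replicate 1 had the lowest value of the 3 controls for every member. Without it, the +D sublines were higher than the control for 3 members, namely SP with 0.49 (adjusted p = 0.00116), intr with 1.05 (adjusted p = 0.00133) and Sems with 0.48 (adjusted p = 0.0101). The count for all inbred sublines was then 7, as CG9997 had a difference of 0.22 (adjusted p = 0.194), and the -D sublines were still higher for 9 of 9 members. The share of all probe sets called without control replicate 1 is not given here. For +D sublines against the control, the main fit called 3677 probe sets in either direction. The other settings and the fits without 1 array called between 3360 and 5004.

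In the order of the 9 group means, neighbouring groups mostly overlapped. The control stood apart from the inbred group with the next higher mean for SP, Sems, intr and lectin-46Cb. For lectin-46Cb this was line 5 +D, and single +D sublines of lines 12 and 15, at 9.82 and 9.83, still lay below the highest control, at 9.84. For aqrs and CG9997 it was not the lowest group, as the +D sublines of line 15 had lower means, at 9.74 for aqrs and 9.62 for CG9997. The only other step without overlap was in lectin-46Ca, between the -D sublines of line 5, with 9.82, 9.78 and 9.74, and those of line 12, with 9.61, 9.71 and 9.57. For aqrs, antr, CG9997, CG17575, Sems and lectin-46Ca the 4 highest group means were those of the 4 -D groups. The share of all probe sets with this order is not given here. For CG9997 the step was slight, from 10.233 in line 15 -D to 10.231 in line 7 +D.

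**Figure D4:**
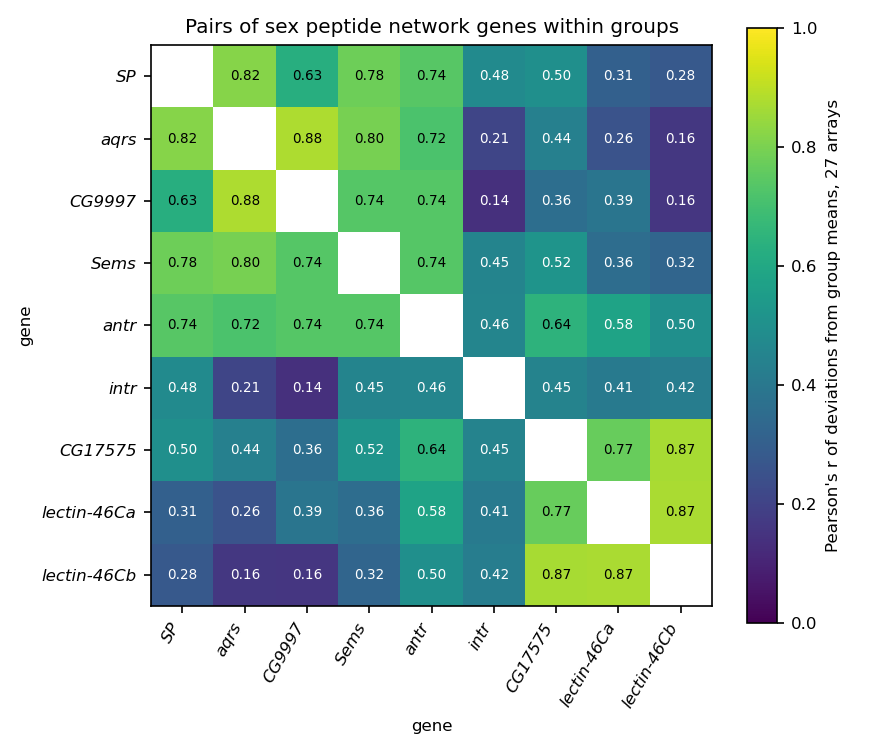
Pearson's r between members over 27 arrays, after the mean of its group was taken from each value. Values are high among SP, aqrs, CG9997, Sems and antr and among CG17575 and both lectins, and lower between these sets.

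Members also varied together within groups. Pearson's r was taken over the 27 arrays from deviations from the group means, as a description with no test, since the points of all pairs share the same arrays and their scaling. Over the 36 pairs the mean r was 0.524. Values fell into sets that were read from the data after they were seen. Among SP, aqrs, antr, CG9997 and Sems the mean of 10 pairs was 0.756 (lowest 0.628), and among CG17575 and both lectins that of 3 pairs was 0.836 (lowest 0.766). Between these sets the mean of 15 pairs was 0.385, and intr had a mean of 0.378 with the 8 others. In the same order, the means without the 2 arrays farthest from the median of the first gene of a pair were 0.710, 0.778, 0.339 and 0.251.

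Some members are neighbours on the chromosome in the RefSeq annotation of Release 6. CG9997 and aqrs are adjacent protein-coding genes on arm 3R, and a single gene, CG34295, lies between aqrs and intr. CG9997 and aqrs had an r of 0.877, whereas aqrs and intr had one of 0.208. On arm 2R, lectin-46Ca and lectin-46Cb are adjacent and had an r of 0.875. CG17575 and antr are also adjacent on 2R and had an r of 0.645, while CG17575 had one of 0.869 with lectin-46Cb.

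The expression patterns most like those of the members were sought among 8399 probe sets of other single genes, by Pearson's r over the 27 arrays. The closest genes were Mst57Da (r = 0.953), BG642312 (0.927) and Acp53Ea (0.926) for SP. For Sems they were CG11112 (0.950), Acp53C14b (0.935) and CG4271 (0.931). For antr they were CG31418 (0.934), Acp29AB (0.913) and Acp53C14b (0.910). Mst57Da, Acp53Ea, Acp53C14b and Acp29AB code for accessory gland proteins.

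The same 3 genes, Acp32CD, CG13965 and CG9029, came closest to both lectins, led by Acp32CD with an r of 0.959 for lectin-46Ca and 0.942 for lectin-46Cb. Acp32CD, an accessory gland protein, and CG13965 were also among the closest to CG17575, with 0.913 and 0.931, besides CG11037 (0.911). For aqrs the closest were CG31419 (0.885), Sfp38D (0.867) and CG11828 (0.864), and for CG9997 they were CG11828 (0.878), Ugt50B3 (0.867) and drm (0.853). For intr they were alphaTry (0.876), CG31496 (0.864) and CG8460 (0.854). Over the 24 inbred arrays alone the 3 values for intr were 0.713, 0.602 and 0.563, and those for SP were 0.856, 0.718 and 0.738, so for both genes they rested in part on the distance of the control. For the other members the values over the 24 arrays were between 0.833 and 0.942.

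Genes known to act with the network in the male or the female were tested as a list of 8. Of these, 3 were lower in the +D than in the -D sublines and none was higher. Of all probe sets 8.94% were called lower and 6.26% higher. The metalloprotease Semp1, which cuts seminal proteins, differed by -0.62 (adjusted p = 4.27e-04 in limma), with means of 7.82 in +D and 8.43 in -D sublines. Acp36DE, which is needed for sperm storage, differed by -0.28 (adjusted p = 0.00445), and the ovulation hormone Acp26Aa by -0.22 (adjusted p = 0.0387). Dup99B, a relative of SP from the ejaculatory duct, differed by -0.14 (adjusted p = 0.265) and the SP receptor gene SPR by -0.12 (adjusted p = 0.413). Against the control 5 of the 8 were higher in inbred sublines, where 29.6% of all probe sets were called higher in limma. Among the 5 were SPR with 0.70 (adjusted p = 2.66e-04) and Mip, whose peptides also bind that receptor, with 0.81 (adjusted p = 7.05e-05).

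**Figure D5:**
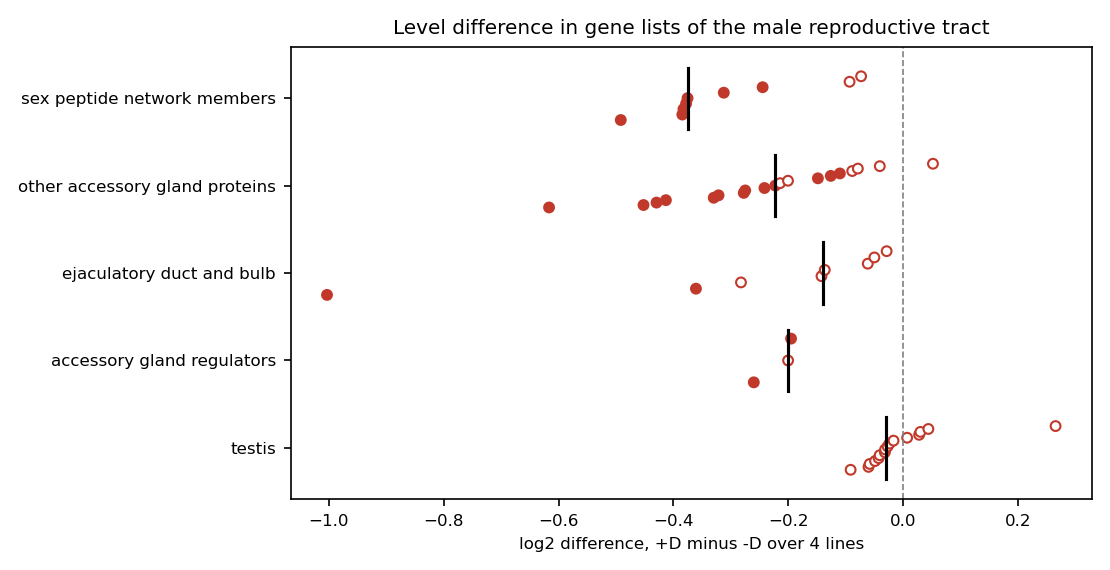
Log2 difference of +D minus -D sublines over 4 lines, with a point for each gene of 5 lists and a bar for the median of a list; filled points have an adjusted p under 0.05 in limma. Lower calls make up 7 of 9 members, 13 of 19 other accessory gland proteins, 2 of 8 duct and bulb genes, 2 of 3 regulators and 0 of 16 testis genes. Of all probe sets 8.94% were called lower.

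Other lists of the male tract were counted beside the members, where 8.94% of all probe sets were called lower and 6.26% higher. Of 19 other accessory gland proteins, a list that holds Semp1, Acp36DE and Acp26Aa too, 13 were lower in +D sublines and none higher in limma, with a median of -0.22. Its largest differences besides Semp1 were those of Acp76A, with -0.45 (adjusted p = 0.0183), and Acp53C14c, with -0.43 (adjusted p = 0.0286). Of 8 genes of the ejaculatory duct and bulb, 2 were lower, namely glucose dehydrogenase (Gld) with -1.003 (adjusted p = 3.46e-04) and Obp22a with -0.36 (adjusted p = 0.00942). Among 3 genes for regulators of accessory gland development, prd differed by -0.26 (adjusted p = 0.0129) and dve by -0.20 (adjusted p = 0.0471). Of 16 testis genes, 0 were called in limma and 0 had an unadjusted p under 0.05, with a median of -0.03. Such a p was found for 27.2% of all probe sets.

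Against the control, 15 of the 19 other accessory gland proteins were higher in the inbred sublines, with a median of 0.38. So were 5 of 8 genes of the duct and bulb, with a median of 0.28, and 2 of 16 testis genes, with a median of 0.07. Of all probe sets 29.6% were higher, with a median of 0.11, so the testis genes lay below the background. The accessory gland list moved in the same directions as the members, and the part of that gland as a whole in the members' differences was not tested.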

How the data were processed

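The deposited values are log2 expression, which the authors made with RMA (background correction, quantile scaling over arrays and 1 summary per probe set) in Partek 7.3.3 and affy. The table of all 27 arrays was used, and that of the 24 inbred arrays as an alternative. Of 18952 probe sets the 183 controls of the maker were left out, and of the other 18769 the 9384 (0.5) with the highest maximum (7.06 or more) were kept. Present calls are not used here. Of the 18769, 13647 matched 1 gene, 402 several and 4720 none. Array medians lay between 6.32 and 6.54, and no arrays were identical. Arrays have no read depth, so their number limits the precision. No column of values was left aside.

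The 9 groups were fitted with limma 3.58.1 in R 4.3.3, with a trend in the variance prior, so that each probe set had 1 spread for all groups. p-values were adjusted by the Benjamini-Hochberg method (threshold 0.05). Each inbred array is a separate subline, and p-values measure the spread between such samples. The fit was tested on simulated data with 50 probe sets shifted by 1 log2 unit. It found 96% of them over the 4 lines, 92% for inbred against control, and from 78% to 90% in single lines. The level differences of the members were smaller than this shift, and the simulation gave all groups the same spread. These rates thus do not hold for differences of that size, which were not simulated. Nothing in the labels ties sublines of like replicate number.

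The genes named are the 9 members, the 3 largest differences between levels past the threshold in each gene list, and the 3 genes most like each member. SPR, Mip and Dup99B exceed this rule and were chosen after their values were seen. The members and lists were chosen with earlier results of these data known. Alternatives were another filter or none, the other table, centring, array weights, no trend, sample codes, a replicate block, and leaving out arrays.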

Additional observations from a re-analysis of the deposited data

How the results depend on the processing

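The counts of members called were followed over fits that left out each of the 27 arrays in turn and over the other settings. Over the 4 lines, between 5 and 7 members were lower in +D sublines. The count against the control lay between 7 and 9 for all inbred sublines and was 9 throughout for -D sublines, as it was 0 throughout in line 7 and for the interaction. Without 1 array the count ran from 6 to 7 over the 4 lines, from 0 to 1 in line 5, from 0 to 2 in line 12, from 0 to 2 in line 15 and from 0 to 1 between lines. For +D sublines against the control it ran from 3 to 7 and was 3 only without control replicate 1. The lectin-46Ca call there also ended without line 5 +D replicate 1, line 7 +D replicate 1, line 12 +D replicates 1 or 3, line 15 +D replicate 3 or control replicate 3 (adjusted p up to 0.0975) and with no filter (0.0517), and that of CG17575 without control replicate 3 (0.0525). For all inbred sublines the CG9997 call ended with centring (0.0633) and without control replicate 3 (0.0549). In line 12 the count of 2 became 0 with no filter, with arrays centred on their medians, with sample codes and with the replicate block, and 1 with no trend. There the Sems call ended without any of 19 arrays, and the antr call without line 12 +D replicates 1 or 3 or any of the 3 -D replicates. In line 15 the count of 1 became 2 with array weights, where aqrs joined, and 0 without the 3 arrays with eggshell RNA, without these and the 2 with yolk RNA, or without +D replicate 1, +D replicate 2 or -D replicate 2 alone. With sample codes 1 member was called in line 5 and 1 between lines. The cause of these changes was not tested.

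Signs turned only for values far from the threshold. The level difference of intr was 0.12 over the 4 lines with sample codes. In line 5 it was 0.0028 in the table of the 24 inbred arrays and 0.21 with sample codes, and from -0.18 to 0.18 without 1 array. In line 15 it was 0.013 with array weights and 0.075 without the 5 arrays, and from -0.45 to 0.067 without 1 array. In line 7, CG9997 had 0.037 with array weights and 0.0012 without the 3 or 5 arrays, and from -0.16 to 0.0019 without 1 array, and lectin-46Cb had 0.0055 with array weights and 0.0019 without the 3 or 5 arrays, and from -0.21 to 0.0019 without 1 array. SP lay from -0.042 to 0.081 in line 7 and from -0.12 to 0.057 in line 12 without 1 array. For aqrs in +D sublines against the control the values were -0.0023 with centring and -0.016 with array weights, and from -0.046 to 0.11 without 1 array.

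The lectin-46Cb call over the 4 lines ended without line 5 +D replicates 2 or 3 or -D replicate 2, line 7 +D replicate 2 or -D replicates 2 or 3, line 12 +D replicate 2 or -D replicates 1 or 3, or line 15 +D replicate 1 or -D replicates 1 or 2. It had an adjusted p of 0.0555 with no filter and 0.0496 with the replicate block. The replicate numbers did not pair the sublines, since sublines of 1 number correlated at -0.546 to 0.255 in 12 pairs, with 2 above 0.1. With the block the count over the 4 lines was 7, and it changed no call of a member except those of antr and Sems in line 12.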

Other observations

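Outside the male tract, 8 genes of the fat body were counted between levels, where 6.26% of all probe sets were called higher and 8.94% lower. Larval serum protein 2 (Lsp2), a storage protein, was higher in +D sublines by 1.37 (SE 0.32, adjusted p = 0.00517 in limma), with mean log2 expression of 10.99 in +D sublines, 9.62 in -D sublines and 10.30 in the control. Fat body protein 2 (Fbp2) was higher by 1.85 (SE 0.61, adjusted p = 0.0435), with means of 7.21 in +D sublines, 5.36 in -D sublines and 7.79 in the control. Its -D mean was low on the scale, below the lowest array median of 6.32. The lipid carrier gene Apoltp was lower in +D sublines by -0.23 (SE 0.07, adjusted p = 0.0226). The other 5 genes of the list did not pass the test, and its median difference was 0.07.

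Of 12 egg and yolk genes past the filter, limma called 0 between levels. An unadjusted p under 0.05 was found for 3 of them and for 27.2% of all probe sets. The difference was above 0 for all 12, with a median of 0.99, and the medians of the list were highest on the 3 +D arrays with eggshell RNA. Against the control, 0 of these 12 were called in the inbred sublines and 0 had an unadjusted p under 0.05, which 51.6% of all probe sets had.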
